A study of Mus musculus with 24 samples.

Results

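Gna12, Hsdl2, Nceh1 and Ephx2 are 4 genes from outside the best known targets of the nuclear receptor PPARα whose RNA was lower in Ppara knockout (KO) than in wild-type (WT) mice in liver and in heart. They were selected on the KO minus WT log2 differences of these same arrays, so every KO-against-WT value of theirs is given as a description, without a test. They make up 4 of 18193 genes and 11 of 45037 probe sets on the array, a probe set being a group of short probes read out as 1 value. Gna12 has 5 probe sets, Nceh1 has 3, Hsdl2 has 2 and Ephx2 has 1, and none of them is annotated to another gene as well.

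PPARα is a receptor for fatty acids and their derivatives that pairs with RXR on DNA and raises the transcription of genes for fatty acid uptake and oxidation. It is best known in the liver during fasting, and it also acts in heart muscle, which burns mostly fatty acids. Gna12 encodes the α subunit of the heterotrimeric G protein G12, which passes signals on from receptors in the cell membrane. Hsdl2 encodes a short-chain dehydrogenase with a sterol carrier protein domain that is found in peroxisomes. Nceh1 encodes neutral cholesterol ester hydrolase, an enzyme of the endoplasmic reticulum that frees cholesterol from its esters. Ephx2 encodes soluble epoxide hydrolase, which turns epoxides of arachidonic acid into diols.

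The mice were SV129, KO or WT for Ppara, female or male and about 10 to 12 weeks old, and all were killed at zeitgeber time 14. The groups were KO females, KO males, WT females and WT males, with liver and heart taken from each, and every group held 3 pools of 4 animals, for 24 arrays in 8 groups. Label numbers name the pools, and in each tissue 10, 11 and 12 are KO females, 4, 5 and 6 KO males, 7, 8 and 9 WT females, and 1, 2 and 3 WT males. Values are log2 intensities, ± gives the SD over 3 pools, and SE is the standard error of the fitted difference. Median intensities of single arrays were 2.43 to 2.49 in liver and 3.01 to 3.07 in heart, so levels were set side by side only within a tissue. Spread and p-values describe pools, not single animals, and in whole tissue fewer cells of a type and less RNA per cell cannot be told apart.

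Ppara itself had a log2 intensity of 7.27 to 7.60 in the 6 KO liver pools, against 8.24 to 8.69 in the 6 WT liver pools. In heart it was 5.28 to 6.13 in KO pools, against 6.73 to 7.27 in WT pools. Whether its probes lie inside the deleted sequence is not given in the sources used here, and the labels do not say whether the deletion was limited to some cells. All 6 measured hepatocyte markers lay above the 75th percentile of the array in every liver pool, and all 8 cardiomyocyte markers did in every heart pool. In female heart the mean over 4 atrial markers was 10.38 to 10.78 in KO pools, against 10.99 to 11.08 in WT pools, and that over 4 blood markers was 4.12 to 4.26 in KO pools, against 4.35 to 4.43 in WT pools. In male heart the atrial mean overlapped, at 10.99 to 11.24 in KO pools and 10.83 to 11.07 in WT pools. In liver the hepatocyte mean was slightly lower in the KO, at 12.71 to 12.75 against 12.76 to 12.83 in females and 12.66 to 12.67 against 12.68 to 12.70 in males. The blood mean was 3.76 to 3.84 in KO and 3.58 to 3.64 in WT male livers, and overlapped in females. Some other marker lists also had KO and WT pools apart. Among them were the cardiomyocyte markers in female heart, with means of 12.06 to 12.08 in KO and 12.01 to 12.03 in WT. Adipocyte markers were apart in liver of both sexes, near the array median. Their means were 2.52 to 2.66 in KO and 2.33 to 2.48 in WT females. In males they were 2.49 to 2.50 in KO and 2.34 to 2.46 in WT livers. The part of such marker shifts in the values of the 4 genes was not tested in either tissue. A pair of heart pools stood apart. Male KO heart pool 4 had Xist at 6.62, against 2.80 to 3.12 in the other male hearts, and a mean over 10 skeletal muscle markers of 5.35, where no other heart pool passed 4.70. Female KO heart pool 10 had a mean over 6 hepatocyte markers of 5.16, against 3.82 to 4.26 in the other heart pools, and Eif2s3y, a Y-linked gene, at 3.34. Heart values of the 4 genes are therefore also given without these pools. Eif2s3y was also apart in male liver, at 3.08 to 4.46 in KO pools and 4.73 to 5.18 in WT pools. Whether this bears on the liver values of the 4 genes was not tested.

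The promoters of 3 of the 4 members, all but Ephx2, are shown because these RNAs were lower in the absence of 1 transcription factor. RefSeq (GRCm38.p6) gave windows from 250 bases before to 50 bases after the start of Gna12 (chr5:140830382-140830681, minus strand), Hsdl2 (chr4:59581313-59581612, plus strand) and Nceh1 (chr3:27182754-27183053, plus strand). They are written 5′ to 3′ along the gene. Capitals mark the CCAAT box, the GC box written GGGCGG and the E-box written CACGTG, each read on either strand.
Gna12: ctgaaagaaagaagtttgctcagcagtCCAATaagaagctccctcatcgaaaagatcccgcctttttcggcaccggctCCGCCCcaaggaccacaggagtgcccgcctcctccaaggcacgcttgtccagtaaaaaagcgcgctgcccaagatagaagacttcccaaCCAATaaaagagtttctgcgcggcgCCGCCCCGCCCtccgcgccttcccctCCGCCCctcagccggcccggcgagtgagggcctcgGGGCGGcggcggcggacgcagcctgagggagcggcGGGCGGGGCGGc
Hsdl2: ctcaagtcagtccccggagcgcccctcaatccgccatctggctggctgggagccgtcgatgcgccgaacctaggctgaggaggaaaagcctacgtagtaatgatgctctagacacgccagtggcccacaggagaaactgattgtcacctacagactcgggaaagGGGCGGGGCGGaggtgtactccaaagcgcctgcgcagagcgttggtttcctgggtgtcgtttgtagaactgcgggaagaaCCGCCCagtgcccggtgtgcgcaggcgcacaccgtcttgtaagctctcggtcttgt
Nceh1: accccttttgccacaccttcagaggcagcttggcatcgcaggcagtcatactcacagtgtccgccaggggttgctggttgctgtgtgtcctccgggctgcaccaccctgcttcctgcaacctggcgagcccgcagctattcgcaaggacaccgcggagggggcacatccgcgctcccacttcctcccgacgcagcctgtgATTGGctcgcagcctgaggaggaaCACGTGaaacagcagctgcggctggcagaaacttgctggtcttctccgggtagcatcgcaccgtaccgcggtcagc

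The Gna12 window is 65.7% G and C, with 2 matches to CCAAT and 7 to GGGCGG, some of which overlap. The Hsdl2 window is 60.7% G and C and has 3 matches to GGGCGG. The Nceh1 window is 63.3% G and C, with 1 match to CCAAT and 1 to CACGTG. The median over the 32851 windows of the RefSeq table was 52.7%. Of all windows, 37.4% held the CCAAT box, 35.7% held the GC box and 7.15% held this E-box. The direct repeat that PPARα and RXR bind was searched on both strands as AGGTCANAGGTCA, which 0.0396% of all windows held, and more loosely as AGGNCANAGGNCA, held by 0.381%. Neither form was in any of the 3 member windows, nor was the single AGGTCA, which 16.3% of all windows held. At such shares a search of 3 windows would mostly find none, so nothing is read from its outcome. These letters can still lie elsewhere in or around the genes.

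Gna12 was lower in the KO, with no overlap of KO and WT pools in either tissue or sex, on 3 of its 5 probe sets. On 1455008_at, the probe set with the highest mean, KO female livers were at 5.12, 4.84 and 4.84 (pools 10, 11 and 12), against 6.12, 6.57 and 6.30 in WT female livers (pools 7, 8 and 9). Male livers were at 5.11, 5.29 and 5.45 in the KO (pools 4, 5 and 6), against 6.34, 6.43 and 6.56 in the WT (pools 1, 2 and 3). All 6 KO livers lay below all 6 WT livers, and the gap between the groups was wider than the spread within either. KO minus WT was −1.40 (SE 0.12, 2.63-fold lower) in female liver and −1.16 (SE 0.12, 2.23-fold lower) in male liver.

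In heart the same Gna12 probe set was at 6.45, 6.17 and 6.32 in KO females, against 7.19, 7.28 and 7.07 in WT females. KO male hearts were at 6.46, 6.13 and 6.78 for pools 4, 5 and 6, against 7.47, 7.55 and 7.30 in WT males. The groups again did not overlap, and KO male pool 6 came nearest to the WT. The differences were −0.87 (SE 0.13, 1.83-fold lower) in females and −0.98 (SE 0.13, 1.97-fold lower) in males, and −0.94 and −0.98 without pools 4 and 10.

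The other probe sets of Gna12 fell into a pair that followed the first and a pair that did not. On 1450097_s_at KO minus WT was −1.10 in female liver, −1.33 in male liver, −0.78 in female heart and −0.71 in male heart. On 1421026_at it was −0.92, −1.13, −0.75 and −1.15 in the same order. In none of these comparisons did KO and WT pools overlap. In KO liver 1421026_at was itself dim, on average 0.29 above the array median in females and 0.60 above it in males. The remaining probe sets were dim in both tissues. 1450096_at lay within −0.10 and 0.38 of the array median on all 24 arrays, with KO minus WT between −0.24 and −0.09. Its KO and WT pools did not overlap in female heart (−0.24, 95% interval −0.45 to −0.02). 1439206_at lay between −0.55 and 0.70 of the median, with KO minus WT between −0.08 and 0.21, and in male liver all 3 KO pools were above all 3 WT pools, as for 7.79% of all probe sets. Probe sets 1421026_at, 1450096_at and 1450097_s_at were designed on 1 source transcript, so they are not independent measurements of Gna12.

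Hsdl2 had the widest KO difference in liver among the 4 best measured probe sets. On 1426857_a_at KO female livers were at 5.56, 5.54 and 4.50, against 6.97, 7.12 and 6.70 in WT females. KO male livers were at 4.94, 4.94 and 4.63, against 6.17, 6.17 and 6.20 in WT males. The KO and WT groups did not overlap, and female KO pool 12 was 1 log2 unit or more below the other female KO pools. KO minus WT was −1.73 (SE 0.22, 3.32-fold lower) in females and −1.34 (SE 0.22, 2.54-fold lower) in males.

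In heart Hsdl2 on this probe set was lower in the KO by less. KO female hearts were at 7.04, 7.18 and 7.28, against 7.44, 7.75 and 7.82 in WT females. KO male hearts were at 7.10, 7.08 and 7.08, against 7.88, 7.83 and 7.94 in WT males. The male groups were tight and apart, while the highest KO and lowest WT female pools were 0.16 apart. The differences were −0.50 (SE 0.10, 1.42-fold lower) in females and −0.80 (SE 0.10, 1.74-fold lower) in males, and −0.44 and −0.80 without pools 4 and 10. The other Hsdl2 probe set, 1426856_at, comes from the same source transcript. It gave −1.28 in female liver, −0.94 in male liver, −0.59 in female heart and −0.95 in male heart, with no overlap in any of them. The values in male liver and male heart were about the same. But the probe set averaged 0.76 above the array median in KO male liver and 3.63 above it in KO male heart. A liver fall may therefore not be measured in full, and an equal KO difference is not shown.

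Nceh1 was lower in the KO in all 4 settings on its brighter pair of probe sets. On 1435135_at KO female livers were at 4.55, 4.39 and 4.05, against 5.47, 5.08 and 5.02 in WT females. KO male livers were at 3.66, 3.03 and 3.75, against 4.72, 4.79 and 4.33 in WT males. KO and WT did not overlap within a sex, but KO female livers (4.05 to 4.55) overlapped WT male livers (4.33 to 4.79). KO minus WT was −0.86 (SE 0.20, 1.81-fold lower) in females and −1.13 (SE 0.20, 2.19-fold lower) in males.

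In heart Nceh1 on this probe set was at 8.16, 8.22 and 8.06 in KO females, against 8.71, 8.61 and 8.67 in WT females. It was at 7.96, 7.77 and 7.82 in KO males, against 8.54, 8.50 and 8.65 in WT males. The KO hearts of both sexes lay below every WT heart. The differences were −0.52 (SE 0.08, 1.43-fold lower) in females and −0.71 (SE 0.08, 1.64-fold lower) in males, and −0.53 and −0.77 without pools 4 and 10. On 1455227_at KO minus WT was −0.81 in female liver, −1.04 in male liver, −0.62 in female heart and −0.51 in male heart. In KO liver this probe set was dim, on average 0.77 above the array median in females and 0.23 above it in males. The third probe set, 1435134_at, was within −0.10 and 0.45 of the array median in liver, where KO minus WT was −0.21 in each sex. In heart, where it was 1.55 to 2.60 above the median, it gave −0.42 in females, whose groups overlapped, and −0.56 in males, whose groups did not. All 3 Nceh1 probe sets share 1 source transcript.

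On the best measured probe sets, Ephx2 was the member with the wider KO difference in heart. Its contrast between the tissues, given below, did not pass in either sex. On the Ephx2 probe set, 1448499_a_at, KO female livers were at 8.85, 8.84 and 8.79, against 9.66, 9.86 and 9.41 in WT females. KO male livers were at 9.59, 9.74 and 9.65, against 10.02, 10.19 and 10.33 in WT males. The KO and WT groups of a sex did not overlap, but the range of KO males lay within that of WT females. KO minus WT was −0.82 (SE 0.11, 1.76-fold lower) in females and −0.52 (SE 0.11, 1.44-fold lower) in males.

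In heart Ephx2 was at 7.47, 7.44 and 7.41 in KO females, against 8.49, 8.64 and 8.50 in WT females. KO male hearts were at 7.44, 7.63 and 7.46, against 8.62, 8.54 and 8.45 in WT males. The 6 KO hearts spanned 7.41 to 7.63 and the 6 WT hearts 8.45 to 8.64, and in each genotype the ranges of the sexes overlapped. The differences were −1.10 (SE 0.08, 2.15-fold lower) in females and −1.03 (SE 0.08, 2.04-fold lower) in males, and −1.12 and −0.99 without pools 4 and 10.

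**Figure D1:**
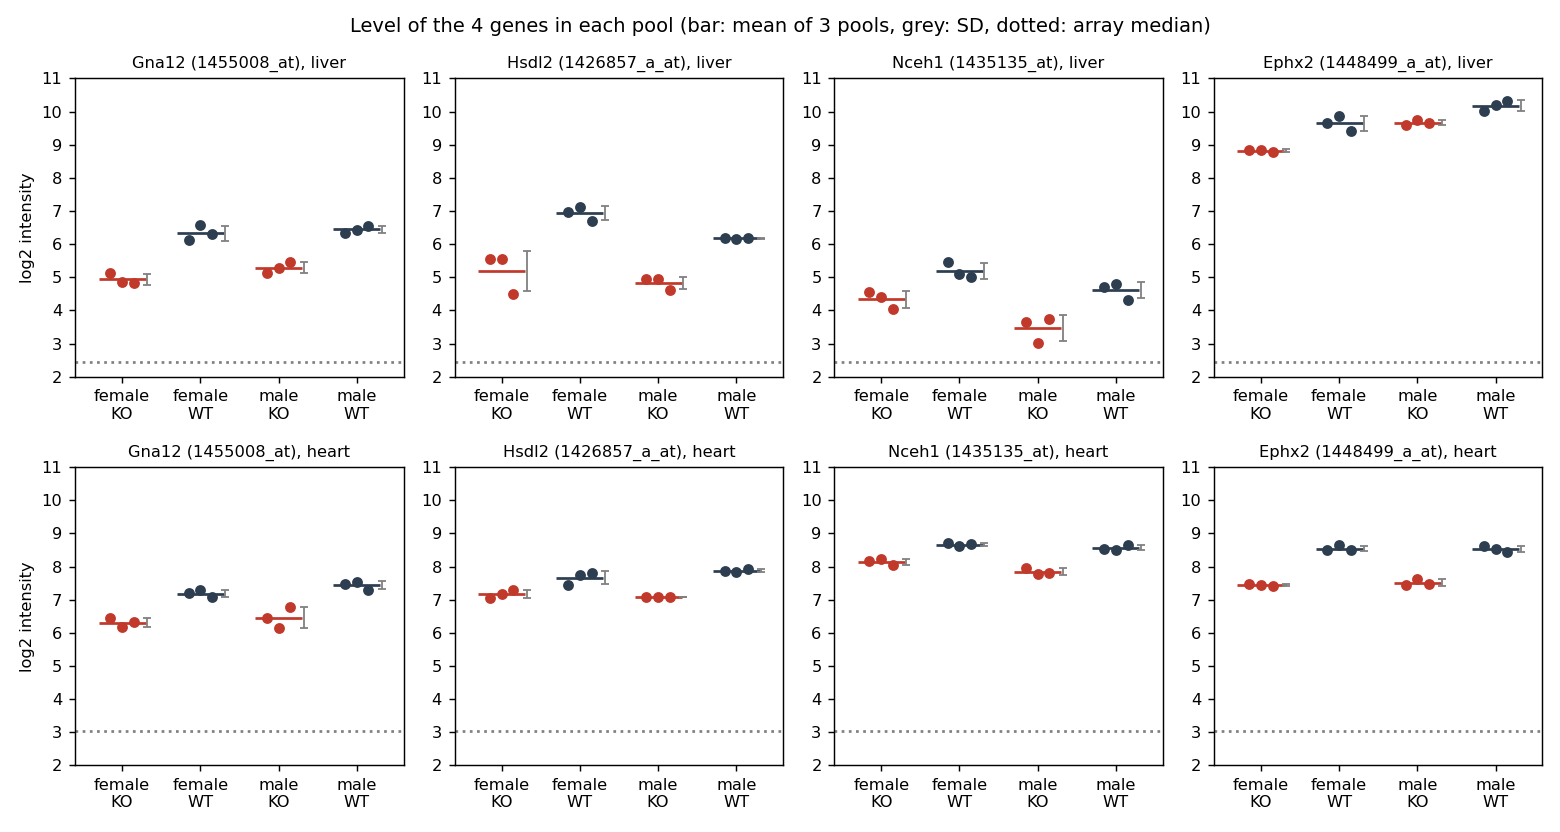
Log2 intensity (y axis) of the best measured probe set of Gna12, Hsdl2, Nceh1 and Ephx2 in each pool of female KO, female WT, male KO and male WT liver (top) and heart (bottom), with the mean of 3 pools as a bar, the SD in grey and the mean of the array medians dotted. Within each sex and tissue the 3 KO points lie below the 3 WT points, and the Hsdl2 point of female KO liver pool 12 at 4.50 lies apart from its group.

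Counted over all 11 member probe sets, the 3 KO pools lay below the 3 WT pools without overlap for 8 in female liver, 8 in male liver, 9 in female heart and 9 in male heart. Of all probe sets, 5.17%, 7.78%, 6.02% and 5.4% did so in the same comparisons. In all 4 comparisons together it was 8 of the 11 members and 68 of 45037 probe sets (0.151%). Since the genes were picked for being lower, nothing is read from the members' share. The exceptions were Gna12 1450096_at and 1439206_at and Nceh1 1435134_at, the dimmest of their genes.

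**Figure D2:**
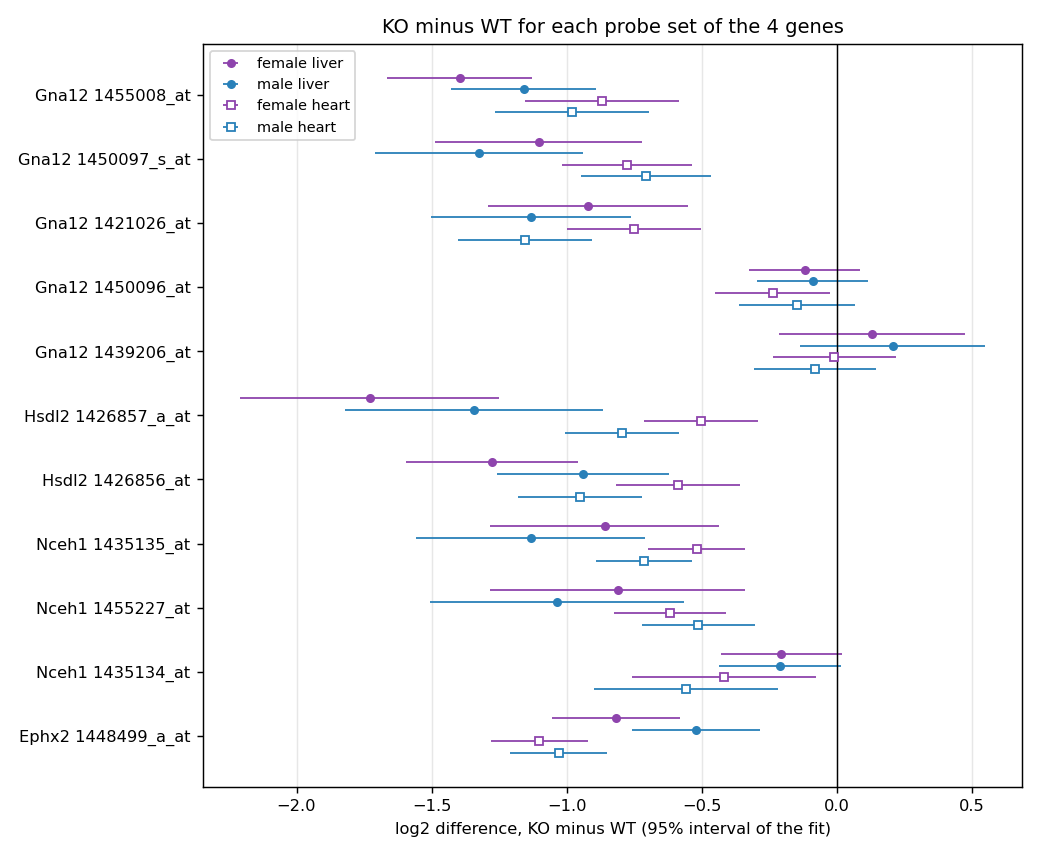
KO minus WT log2 difference (x axis) with the 95% interval of the fit for each of the 11 probe sets, in female liver, male liver, female heart and male heart. Points lie left of 0 except for Gna12 1439206_at in liver, from −1.73 for Hsdl2 1426857_a_at in female liver to 0.21.

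Whether WT levels differed between the sexes was not part of how the members were chosen and was tested with limma over all probe sets. The WT pools were nevertheless one side of the differences the members were selected on. In WT liver 1.17% of probe sets passed at an adjusted p under 0.05, and 2 of the 11 member probe sets did. An unadjusted p under 0.05 was found for 5 of the 11 and for 4968 of all 45037 probe sets. Hsdl2 was higher in WT females on 1426856_at, at 4.85 ± 0.37 in females and 4.15 ± 0.10 in males (1.63-fold, difference 0.70, 95% interval 0.38 to 1.02, limma adjusted p = 0.0372), with all 3 female pools above all 3 male pools. Its other probe set, 1426857_a_at, had a like difference of 0.75 that did not pass (limma adjusted p = 0.176). Ephx2 was lower in WT females, at 9.64 ± 0.23 in females and 10.18 ± 0.16 in males (1.45-fold, difference −0.54, 95% interval −0.77 to −0.30, limma adjusted p = 0.0312), again with no overlap. Nceh1 1435135_at was 0.58 higher in females (95% interval 0.16 to 1.01) and did not pass (limma adjusted p = 0.258). The difference for Gna12 1455008_at was −0.11. Without regard to the test, all 3 female pools lay above the male pools for 4 member probe sets and below them for 1, where 9.25% and 9.21% of all probe sets did.

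Both calls depended on which pools were included. The limma adjusted p of Hsdl2 1426856_at exceeded 0.05 when liver pool 1, 2, 3, 7 or 8 was left out, and that of Ephx2 did without liver pool 2, 3, 7 or 9, up to 0.166 and 0.141, with differences of 0.49 to 0.83 and −0.65 to −0.42 over all left-out pools. In WT heart 0.0178% of probe sets passed and 0 of the 11 member probe sets did. At an unadjusted p under 0.05 there were 2 of the 11 and 2582 of all 45037. Ephx2 differed there by 0.01 (95% interval −0.17 to 0.19), Nceh1 1435135_at by 0.10, Gna12 1455008_at by −0.26 and Hsdl2 1426857_a_at by −0.21. The difference between liver and heart in this sex contrast was not tested.

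In liver the order of the groups on the best measured probe set differed between the members, given as a description. For Ephx2 WT males were highest at 10.18 ± 0.16, KO males at 9.66 ± 0.07 and WT females at 9.64 ± 0.23 overlapped, and KO females were lowest at 8.83 ± 0.03. For Hsdl2 1426857_a_at WT females (6.93 ± 0.21) were above WT males (6.18 ± 0.02), and KO females (5.20 ± 0.60) and KO males (4.84 ± 0.18) overlapped at the bottom. For Nceh1 1435135_at WT females (5.19 ± 0.24) were highest, WT males (4.61 ± 0.25) and KO females (4.33 ± 0.25) overlapped, and KO males (3.48 ± 0.39) were lowest. For Gna12 1455008_at WT males (6.44 ± 0.11) and WT females (6.33 ± 0.23) overlapped, as did KO males (5.28 ± 0.17) and KO females (4.93 ± 0.16). Other probe sets of Hsdl2 and Nceh1 gave other orders. On Hsdl2 1426856_at KO females (3.47 to 3.64) lay above KO males (3.10 to 3.38). On Nceh1 1455227_at WT females (3.69 to 4.47) overlapped WT males (3.61 to 3.93). There KO females (2.74 to 3.51) overlapped KO males (2.51 to 2.96).

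Whether the KO difference itself depended on sex was tested as KO minus WT in females minus the same in males. The members were selected on the sign of these differences and not on their inequality, but the same values enter, so this test and that between tissues are not independent of the selection. In liver 0 of 11 member probe sets passed in limma and 0 had an unadjusted p under 0.05. Of all 45037 probe sets 0.0311% passed and 2171 had an unadjusted p under 0.05. The intervals were wide. That of Ephx2 ran from −0.63 to 0.04 around −0.30, that of Hsdl2 1426857_a_at from −1.06 to 0.29 around −0.39, that of Nceh1 1435135_at from −0.33 to 0.87 around 0.27, and that of Gna12 1455008_at from −0.62 to 0.14 around −0.24. In heart 0 of 11 passed in limma, 2 had an unadjusted p under 0.05 (Gna12 1421026_at at 0.40 and Hsdl2 1426856_at at 0.36), and of all 45037 probe sets 0 passed while 2058 had an unadjusted p under 0.05. Alike KO differences in the sexes are not shown by this, since intervals of this width leave unequal ones possible.

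Whether the KO difference depended on the tissue was tested as KO minus WT in liver minus the same in heart. In females 0.4% of all probe sets passed in limma, and 1 of the 11 member probe sets did. At an unadjusted p under 0.05 there were 3 of the 11 and 2888 of all 45037. Hsdl2 1426857_a_at was lowered more in liver, by −1.73 in liver and −0.50 in heart, a contrast of −1.23 (SE 0.25, 95% interval −1.75 to −0.70, limma adjusted p = 0.0230). The other Hsdl2 probe set gave −0.69 and did not pass (limma adjusted p = 0.178). The Hsdl2 call was lost without liver pool 7 or 8 or heart pool 7, 11 or 12, with limma adjusted p up to 0.102 and contrasts of −1.41 to −0.88 over all left-out pools. It was also lost without heart pools 4 and 10 together (−1.29, limma adjusted p = 0.0524), and with the pool number as a block (−1.23, limma adjusted p = 0.0644).

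In males 0.271% of probe sets passed this test in limma and 0 of 11 member probe sets did. At an unadjusted p under 0.05 there were 4 of the 11 and 3198 of all 45037. Ephx2 was the member with the lowest p there. Its contrast of 0.51 (95% interval 0.22 to 0.79) ran the opposite way to that of Hsdl2, with the KO difference larger in heart, and did not pass (limma adjusted p = 0.219). In females the Ephx2 contrast was 0.28. For Hsdl2 in males the contrast was −0.55 on 1426857_a_at (limma adjusted p = 0.685) and 0.01 on 1426856_at (limma adjusted p = 0.996). Gna12 1455008_at had contrasts of −0.53 in females and −0.18 in males, and Nceh1 1435135_at of −0.34 and −0.42, none of which passed.

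**Figure D3:**
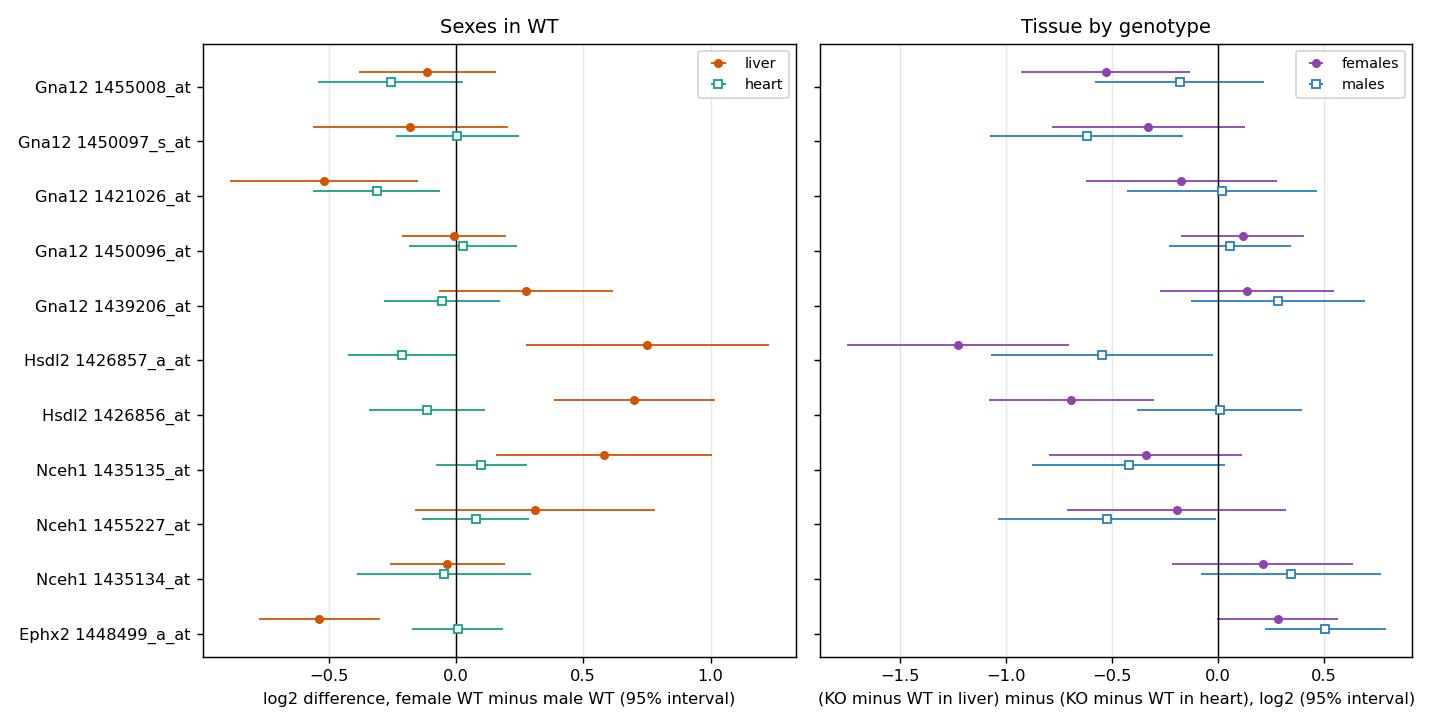
Left, female WT minus male WT log2 difference in liver and heart. Right, KO minus WT in liver minus KO minus WT in heart for females and males, each with its 95% interval (x axes, log2). Hsdl2 1426856_at (0.70) and Ephx2 (−0.54) lie on opposite sides of 0 in WT liver, and Hsdl2 1426857_a_at in females (−1.23) lies farthest from 0 on the right.

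Genes related to each member by function were described from fixed lists, with 1 probe set a gene. Calls by limma in female liver, male liver, female heart and male heart covered 0.412%, 0.407%, 0.368% and 0.319% of all genes as lower in the KO, and 0.319%, 0.148%, 0.104% and 0.0824% as higher. The medians of KO minus WT over all genes lay between −0.005 and 0.011. Of all 45037 probe sets, 2564, 3834, 2850 and 2613 had an unadjusted p under 0.05 in the same order. Of the 22 measured genes of Gα subunits and G12 signalling other than Gna12 itself, 0 passed in limma in any of the 4 comparisons (3, 3, 0 and 1 at an unadjusted p under 0.05), with list medians of 0.03, 0.00, −0.01 and 0.02. They include Gna13, the closest relative of Gna12. Of 16 measured genes of cholesteryl ester turnover and the deacetylase family of Nceh1, 0 passed in limma in any comparison (4, 2, 4 and 2 at an unadjusted p under 0.05), with list medians of −0.02, −0.05, 0.02 and 0.04. The list around Ephx2 held epoxide hydrolases and cytochrome P450 genes, with some lipoxygenases, cyclooxygenases and a phospholipase. Of its 23 measured genes, 0 passed in limma in any comparison (4, 4, 0 and 1 at an unadjusted p under 0.05), with list medians of 0.02, 0.01, −0.02 and −0.02.

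The list around Hsdl2 was the one of these 4 with calls, and it also held the reductases Decr1, Decr2 and Pecr. Of its 22 measured genes for sterol carrier protein domains and hydroxysteroid dehydrogenase-like enzymes, 5 were lower in KO female liver, 5 in KO male liver, 3 in KO female heart and 2 in KO male heart, and 0 were higher (limma, adjusted p under 0.05). The list medians were −0.08, −0.05, −0.03 and −0.08. Decr2, a peroxisomal dienoyl-CoA reductase, fell, with differences of −3.13 in KO female liver and −3.30 in KO male liver. Hsd17b4, the multifunctional enzyme of peroxisomal β-oxidation, had differences of −1.03 and −0.93 there, and of −0.44 in KO female heart. Dhrs4, a short-chain dehydrogenase, had differences of −0.97 and −0.95 in KO female and KO male liver and of −1.05 and −0.97 in KO female and KO male heart. Decr1, the mitochondrial dienoyl-CoA reductase, had differences of −1.79 in KO female heart and −1.67 in KO male heart. For scale, of 38 measured textbook PPARα target genes 17, 15, 16 and 15 were lower and 1, 1, 0 and 0 higher in the 4 comparisons, with medians of −0.69, −0.36, −0.26 and −0.32. Besides Decr1 and Decr2, the largest falls were those of Cyp4a14, a fatty acid ω-hydroxylase (−5.84), and Vnn1, a pantetheinase (−4.77), in KO female liver. Plin5, a lipid droplet protein, was at −2.0 in male liver, −3.04 in female heart and −3.09 in male heart, and Slc25a20 at −1.85, −1.76 and −1.77. Pdk4, a kinase that inhibits pyruvate dehydrogenase, rose by 1.12 in KO female and by 0.90 in KO male liver. Decr1 and Decr2 are in both lists.

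Genes whose levels moved most like each member were ranked over the 24 pools by Pearson r, after the mean of each tissue and sex had been taken out, among 9848 genes above the array median in both tissues. All points share the KO-against-WT difference, so these values describe a common pattern and carry no p. The ranking favours genes whose KO differences stand in the member's order, so a shared order by tissue is no separate observation. Gna12 was most like Slc25a20 (r = 0.970), the mitochondrial carnitine-acylcarnitine carrier, Ech1 (r = 0.957), a dienoyl-CoA isomerase, and Etfdh (r = 0.952), which passes electrons from fatty acid oxidation to ubiquinone. Hsdl2 was most like the enoyl-CoA isomerases Eci2 (r = 0.963) and Eci1 (r = 0.961), and Etfb (r = 0.951), a subunit of the electron transfer flavoprotein. Eci2 was lower in the KO by −2.03 in female liver and −1.83 in male liver, against −0.64 in female heart and −0.74 in male heart, the same order by tissue as Hsdl2.

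Nceh1 was most like Etfdh (r = 0.928), Mcrip2 (r = 0.920) and Slc25a20 (r = 0.904). Ephx2 was most like Abcd3 (r = 0.975), a transporter of the peroxisomal membrane, Hadha (r = 0.974), the α subunit of the mitochondrial trifunctional protein, and Acads (r = 0.968), short-chain acyl-CoA dehydrogenase. Abcd3 had KO minus WT of −0.63 in female liver and −0.51 in male liver, against −0.82 in female heart and −0.86 in male heart. That is the order by tissue of Ephx2, on which it was ranked. With the mean of each of the 8 groups removed, the genotype difference no longer enters. The members' r on their best measured probe sets, over 12 pools, was then −0.21 to 0.54 in liver and −0.59 to 0.01 in heart. These values are again a description. Probe sets of the same gene ran from −0.62 (Gna12 1455008_at with 1421026_at, heart) to 0.69 (Nceh1 1435135_at with 1455227_at, liver). Nothing is therefore read from how the members vary together. Of the 10 distinct genes most like a member, all had RefSeq windows, and 0 held either direct repeat or AGGTCA while 9 held GGGCGG.

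**Figure D4:**
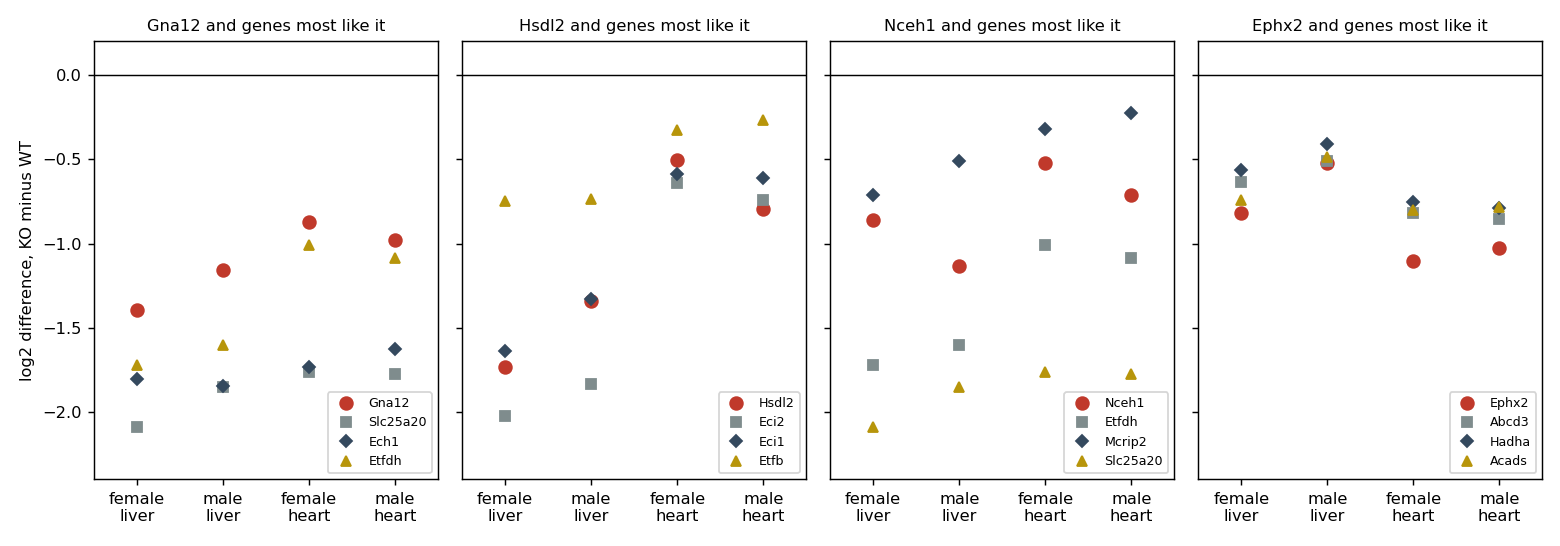
KO minus WT log2 difference (y axis) of Gna12, Hsdl2, Nceh1 and Ephx2 (red circles) and of the 3 genes most like each in female liver, male liver, female heart and male heart. The points of Hsdl2 and Eci2 lie lower in liver and those of Ephx2 and Abcd3 lower in heart, a shared order that the ranking favours. Gna12 lies nearer to 0 than Slc25a20 and Ech1 in every setting.

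The genes that lie beside the members on the chromosomes did not pass. The 4 members lie on chromosomes 5 (Gna12), 4 (Hsdl2), 3 (Nceh1) and 14 (Ephx2). Of the 5 nearest measured protein-coding genes on each side of each member, 40 in all, 0 passed in limma in any of the 4 comparisons (17 of 160 values at an unadjusted p under 0.05). Such a p was found for 2564, 3834, 2850 and 2613 of all 45037 probe sets in female liver, male liver, female heart and male heart. Their KO minus WT values lay between −0.47 for Pld1, beside Nceh1, and 0.72 for Mup10, beside Hsdl2, and the smallest limma adjusted p was 0.163.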

How the data were processed

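RNA of 24 liver and heart pools was measured on Affymetrix mouse arrays. The deposited values are log2 intensities that the authors made with RMA, per the submitters' processing notes, in a version not given in the sources used here. Sorted values nearly coincided within a tissue and differed between tissues, as in arrays normalized apart. After 64 controls were removed from 45101 probe sets, 45037 were fitted with limma 3.58.1 in R 4.3.3 (cell-means model, eBayes, two-sided, Benjamini-Hochberg adjustment over all probe sets, threshold 0.05), each tissue apart, and all 24 arrays together for the tissue contrast. In all, 10 comparisons were made. Precision is limited by how many arrays there are.

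The members, gene lists and tests were chosen with earlier results of these data known. GEO's platform annotation named 1 gene for 34945 probe sets, several for 932 and none for 9160. Lists, genes most like a member and neighbours used, for each gene, the brightest of its probe sets that name no other gene. The text names every member probe set, Ppara, the 3 largest called falls and rises of a list in each comparison, the 3 genes most like each member, and, chosen after their values were seen, the extreme neighbours. RefSeq gene names, neighbours and promoters are those of GRCm38.p6. The fit was tested on simulated data.

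Alternatives were trended and robust variance, renewed quantile normalization, median centring, a filter on dim probe sets, 1 probe set a gene, the pool number as a block, each pool left out in turn, and heart pools 4 and 10 left out together.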

Additional observations from a re-analysis of the deposited data

Results flagged for a closer look

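The KO difference of Hsdl2 on 1426857_a_at differed between the tissues in females by limma's test of the difference itself. KO minus WT was −1.73 in female liver and −0.50 in female heart, and the contrast of liver minus heart was −1.23 (SE 0.25). Female KO liver pool 12, at 4.50, was the lowest of the female KO livers on this probe set, with the others at 5.56 and 5.54. Without that pool the contrast was −0.88 (limma adjusted p = 0.0056). The limma adjusted p exceeded 0.05 without liver pool 7 (0.0601) or 8 (0.0829), without heart pool 7 (0.102), 11 (0.0579) or 12 (0.0801), without heart pools 4 and 10 together (0.0524), and with the pool number as a block (0.0644). The contrast is made of the differences that the genes were selected on. On the other Hsdl2 probe set, 1426856_at, the contrast was −0.69 and did not pass, and in males the contrasts were −0.55 and 0.01.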

How the results depend on the processing

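KO minus WT of the member probe sets kept its direction under every alternative except for Gna12 1439206_at and 1450096_at, which are dim and changed sign around 0 in some. Among the members' other tests, median centring put Hsdl2 1426856_at in WT liver at a limma adjusted p of 0.0553, renewed quantile normalization let Hsdl2 1426857_a_at pass there (0.82, limma adjusted p = 0.0419), and leaving out liver pool 9 let Gna12 1421026_at pass (−0.74, limma adjusted p = 0.0255). Counts of probe sets past the threshold moved more. With trended and robust variance the sexes in WT heart gave 0 instead of 8. With a filter on dim probe sets, which tests fewer of them, sex by genotype in liver gave 22 instead of 14. With 1 probe set a gene, 18193 were tested instead of 45037, so lower counts there are not by themselves lost results. KO against WT in male heart then gave 73 instead of 124. The sexes gave 320 instead of 526 in WT liver and 5 instead of 8 in WT heart. Median centring moved the share of higher calls between the sexes in WT heart to 25%, against 37.5%.

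With 1 pool left out, KO against WT gave 138 to 280 in female liver (216 with all; 138 without pool 8 and 140 without pool 11), 83 to 111 in male liver (155; 84, 91, 90 and 83 without pools 1, 2, 3 and 5), 98 to 145 in female heart and 91 to 113 in male heart. The sexes gave 308 to 444 in WT liver (526; 308, 330 and 324 without pools 2, 3 and 8) and 3 to 4 in WT heart (8). Sex by genotype gave 7 to 41 in liver (14; 41 without pool 12) and 0 in heart. Tissue by genotype gave 122 to 234 in females and 86 to 107 in males. Heart pools 4 and 10 left out gave 97 and 101 for KO against WT in female and male heart. A group with a pool left out has 2, and its spread is taken from all groups of the fit.

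Same-numbered liver and heart pools correlated at −0.18 to 0.11 in their deviations from the group means, over 0.1 for 1 of 12, and 4 of 12 liver pools correlated best with their own number. The labels do not say whether such pools hold the same animals, and these values do not settle it. With the pool number as a block, tissue by genotype gave 156 in females and 91 in males. Within a tissue the compared groups share no pool number. Several KO liver values lie close to the array median, where a fall can no longer be measured in full.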
